A study of Zea mays with 21 samples.

Results

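In leaves of the zebra-leaf maize mutant zb10, 62 of 50142 gene IDs were shifted in the same direction, by 1 or more on the log2 scale, in all 3 comparisons with wild type (WT): 39 were higher and 23 lower in zb10. The 3 comparisons set the white and the green section of zb10 leaves of stage V4, each against the same WT V4 leaf libraries, and zb10 against WT leaf of stage V9. Each shift is the log2 ratio of group means of CPM (each count scaled to a library total of 1000000) with 0.5 added to both means. The members were chosen by these leaf shifts, so every leaf value below is a description without a test, and because both V4 sections were set against the same WT libraries their shifts are not independent. Zm00001d001909 also met the rule and was left out of the list. Endosperm at 16 days after pollination, from zb10 and WT, took no part in the choice, and it was the tissue in which the members were tested.

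By the series text, zb10 plants have lost the function of ZmPTOX. The plastid terminal oxidase, PTOX, passes electrons from plastoquinol to oxygen in the plastid, and in plants it supports the desaturation steps of carotenoid synthesis, so that leaf cells which lack it can lose their chlorophyll to light and turn white while neighbouring cells stay green. In maize, a zebra leaf carries crosswise pale and green bands. A plant line that carries a mutation can also carry other DNA that differs from the wild type it is set against, and the labels do not say how zb10 and WT are related. Gene names do not stand beside the IDs in the count table, and 0 IDs were found in the RefSeq gene table of maize B73, so members are given by ID without a role, the targeted gene was not identified by name, and leaf and endosperm labels were not checked against named markers.

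The 21 libraries form 7 groups of 3, given as biological replicates in the series design: zb10 V4 white section, zb10 V4 green section and WT V4 leaf, zb10 and WT V9 leaf, and zb10 and WT endosperm. Library totals ran from 28237880 to 53092962 counts, with WT V9 replicate 1 at 123050963. Transcripts abundant in WT V9 leaf and at least 16-fold lower in endosperm (the top 100, summed) stood at 602, 523 and 528 CPM in the zb10 endosperm libraries, against 702, 502 and 693 CPM in those of WT. In leaf the same sum was lowest in white section replicate 3, at 111800 CPM. Libraries of 1 group differed at many members, as described below, and WT V9 replicate 2 stood apart from the other WT V9 libraries at several lower members.

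Most members were low transcripts. No leaf group of 40 of the 62 reached a mean of 10 CPM, and 5 members reached 50 CPM in a leaf group. Loci with IDs of the newGene form, which lie outside the reference-style IDs, made up 24 of the 62 (38.7%). They made up 21.6% of the whole table, and 11.5% of the 24153 IDs with a mean of 1 CPM or more in a leaf group. The smallest of a member's 3 shifts had a median size of 1.27 and was under 1.5 for 41 members, so that much of the list lay near the threshold. Zea_mays_newGene_26335 (smallest shift 1.02, lower in zb10) and Zm00001d001786 (1.03, higher) were the nearest inside it. Zm00001d033948 and Zm00001d002374, with smallest shifts of 0.98 each, were the nearest outside it.

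Shifts of 1 or more upward were found in 5.18% of the 38846 IDs with a leaf count in the white section, 0.541% in the green section and 0.402% at V9, and downward in 2.74%, 0.878% and 0.862%; all 62 members have them by the rule. Taken singly, zb10 and WT libraries did not overlap for 33 of the 39 higher members in the white section (22.4% of IDs), 35 in the green section (7.55%) and 37 at V9 (7.65%). For the 23 lower members the counts were 18 in the white section (11.7%), 20 in the green section (7.31%) and 12 at V9 (3.42%). The 3 zb10 libraries and the 3 WT libraries did not overlap in any of the 3 leaf comparisons for 32 of the 39 higher members, where 0.487% of IDs did so upward. For the lower members this was 9 of 23, where 0.178% of IDs did so downward. As the rule used the same contrasts, nothing is read from these shares. With 1 leaf library left out at a time, 25 of the 39 higher members and 5 of the 23 lower ones met the rule in every case. Without WT V9 replicate 2 the rule gave 48 lower IDs, of which 18 were among the 23, and without zb10 V9 replicate 1 it gave 40, including all 23.

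**Figure D1:**
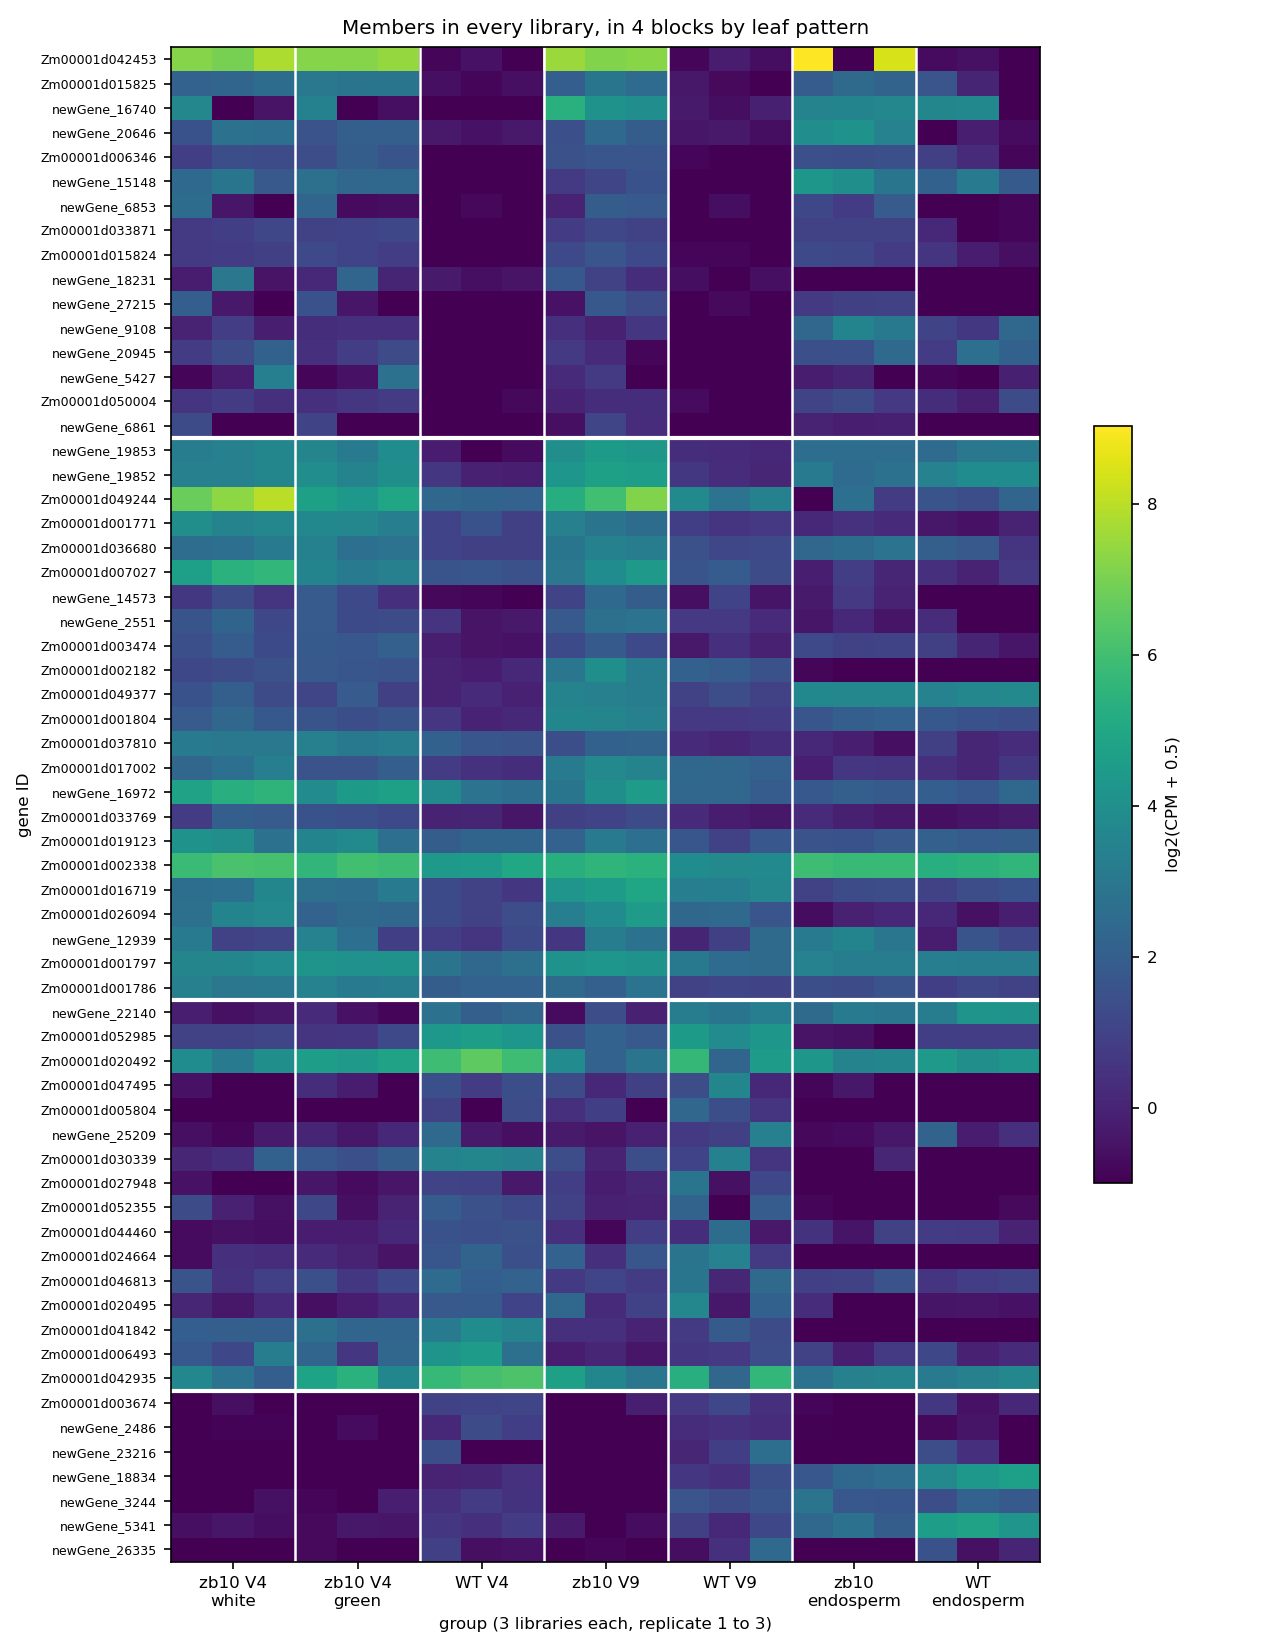
Level of each of the 62 members as log2(CPM + 0.5), by colour, in all 21 libraries (columns, replicates 1 to 3 within each group). The 4 blocks hold, from the top, the 16 higher members with every WT leaf library under 0.5 CPM, the 23 other higher members, the 16 lower members with graded values, and the 7 lower members with every zb10 leaf library under 0.5 CPM.

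Of the higher members, 16 were near absent in WT leaf, with all 6 WT leaf libraries under 0.5 CPM. This class and the others used below were set after the values were seen. Zm00001d042453 had the largest shifts: 148, 125 and 224 CPM in the white section, 146, 146 and 176 CPM in the green section, and 0.0536, 0.197 and 0 CPM in WT V4 leaf. At V9 it stood at 185, 138 and 151 CPM in zb10, against 0.065, 0.369 and 0.143 CPM in WT. Every zb10 leaf library was thus far above every WT library, with shifts of 8.15, 8.07 and 7.84 in white, green and V9 leaf.

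In endosperm the same gene split the zb10 libraries. It stood at 524, 0 and 344 CPM in zb10 replicates 1, 2 and 3, against 0.111, 0.18 and 0 CPM in WT. The library labelled zb10 endosperm replicate 2 thus had no count of Zm00001d042453, while replicates 1 and 3 were high, and the groups overlapped. For Zea_mays_newGene_20646 the same library was the highest of the 6. Zm00001d001909, the ID left out of the list, stood at 7, 5.47 and 8.54 CPM in zb10 endosperm, against 14.1, 13.1 and 16.1 CPM in WT, with replicate 2 the lowest. The count filter left Zm00001d042453 out of the endosperm test. Without the filter it did not pass (edgeR adjusted p = 0.122), and with 1 WT library left out it did not (adjusted p of 0.714 to 0.999). It passed without zb10 replicate 2 (adjusted p = 0.000225), with all leaf libraries added to the fit (0.011) and in DESeq2 (0.0295). The leaf libraries are those that chose this member, so that the fit which holds them is not separate from that choice.

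**Figure D2:**
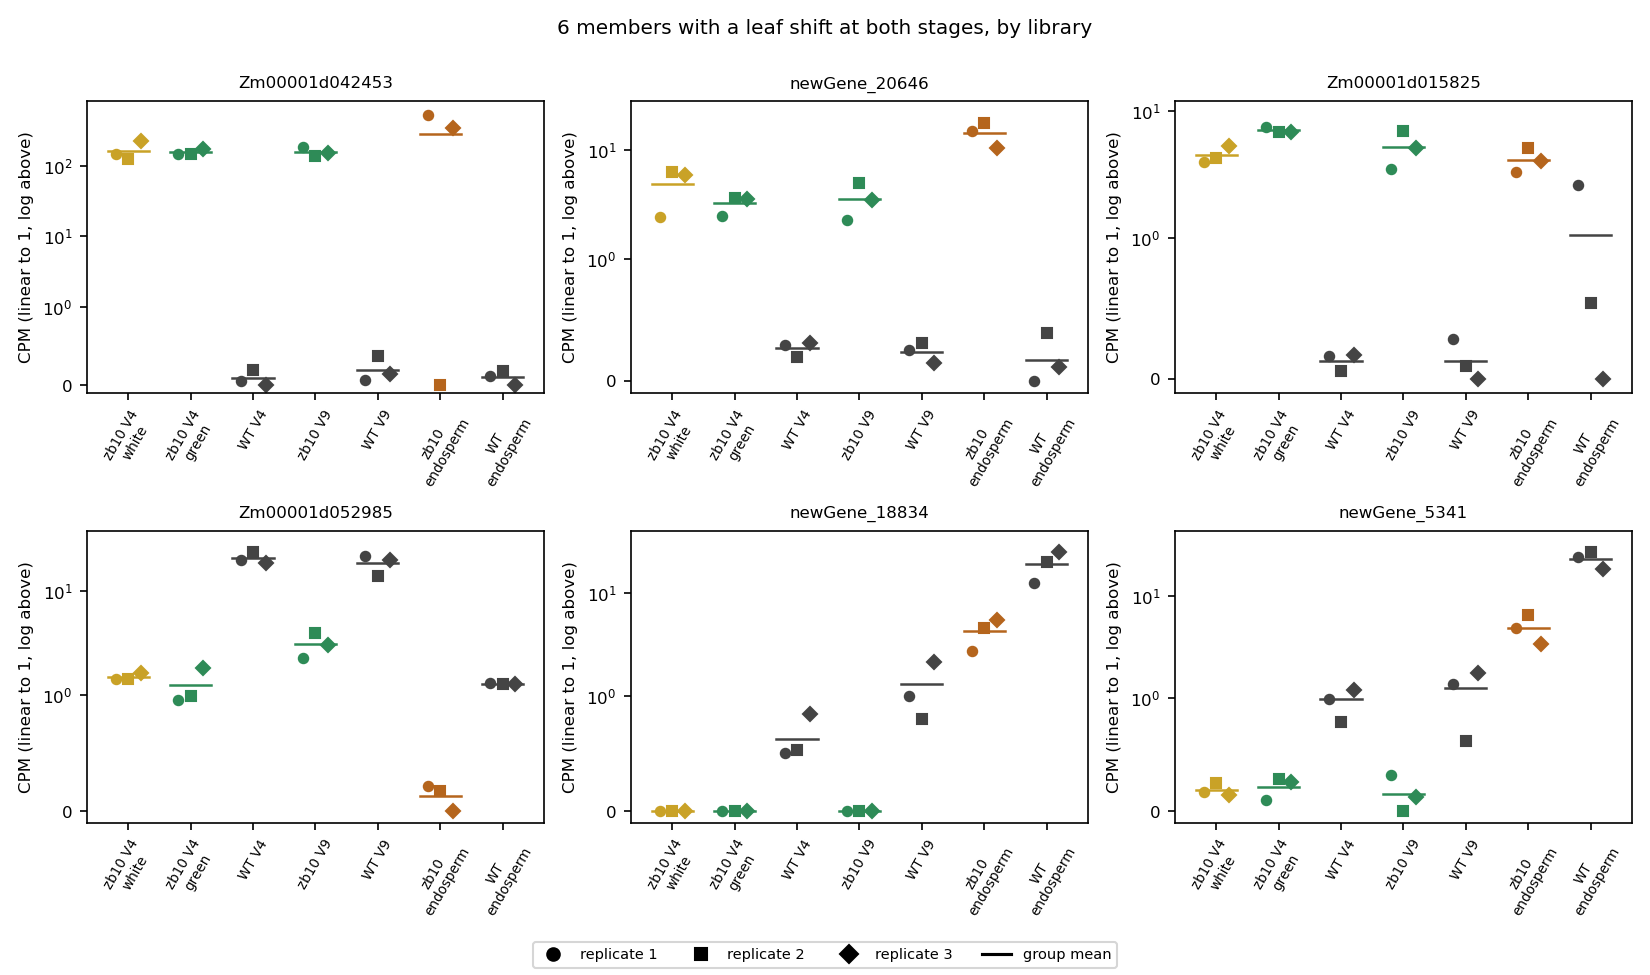
CPM of 6 members in every library (symbols mark replicates 1 to 3, bars the group means; the axis is linear up to 1 CPM and logarithmic above). Zm00001d042453 is high in every zb10 leaf library and at 0 in 1 zb10 endosperm library; Zea_mays_newGene_20646 is higher, and Zm00001d052985, Zea_mays_newGene_18834 and Zea_mays_newGene_5341 are lower, in every zb10 library than in the WT libraries of the same stage or tissue.

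Among the 16 members near absent in WT leaf, 10 were newGene loci and 6 had reference-style IDs. Zea_mays_newGene_20646 stood at 2.42, 6.26 and 5.91 CPM in the white section and 2.47, 3.65 and 3.55 CPM in the green section, against 0.295, 0.197 and 0.311 CPM in WT V4 leaf. At V9 its values were 2.26, 4.93 and 3.43 CPM in zb10 and 0.252, 0.308 and 0.143 CPM in WT. No zb10 leaf library reached down to a WT one, although the zb10 libraries of the white section and of V9 differed by more than 2-fold among themselves.

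Zm00001d015825 and Zm00001d015824, whose ID numbers follow each other, were both near absent in WT leaf. Zm00001d015825 had 3.98, 4.28 and 5.35 CPM in the white section and 7.51, 6.82 and 6.9 CPM in the green section, against 0.161, 0.0564 and 0.169 CPM in WT V4 leaf. The V9 values were 3.5, 7 and 5.15 CPM in zb10, against 0.284, 0.0924 and 0 CPM in WT. Zm00001d006346 and Zm00001d033871 had the same form at lower levels, with zb10 leaf libraries between 1.12 and 3.34 CPM and WT leaf libraries at or under 0.0569 CPM.

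In endosperm these 4 reference-style IDs were present in every zb10 library and uneven among the WT libraries. Zm00001d015825 stood at 3.31, 5.08 and 4.03 CPM in zb10 endosperm, against 2.61, 0.539 and 0 CPM in WT. Zm00001d006346 stood at 2.24, 2.17 and 2.2 CPM in zb10, against 1.39, 0.659 and 0.0466 CPM in WT. WT replicate 1 was the highest WT library for both, and also for Zm00001d033871 (0.611 CPM, against 0 and 0.0466 CPM in WT replicates 2 and 3) and Zm00001d015824 (0.972 CPM, against 0.359 and 0.163 CPM). For all 4, too few WT libraries were over the count filter's cut of 0.288 CPM to pass it without zb10. All 4 were above WT in every zb10 endosperm library, with log2 fold changes of 2.01 ± 1 for Zm00001d015825, 1.68 ± 0.78 for Zm00001d006346, 2.75 ± 1 for Zm00001d033871 and 1.68 ± 0.59 for Zm00001d015824 (± SE; edgeR quasi-likelihood test), and none passed after adjustment (adjusted p of 0.785 to 0.87). Without WT replicate 1 the log2 fold changes were 3.97 for Zm00001d015825, 2.64 for Zm00001d006346, 5.64 for Zm00001d033871 and 2.57 for Zm00001d015824, and none passed (edgeR adjusted p of 0.248 to 0.999). Without WT replicate 2 they were 1.72, 1.68, 2.2 and 1.52 in the same order. Leaving out WT replicate 3 gave 1.4, 1.11, 2.25 and 1.24, and none passed in either fit.

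Some members near absent in WT leaf were present in WT endosperm, 6 of the 16 at a mean of 1 CPM or more there. Zea_mays_newGene_16740 had no count in WT V4 leaf and 0.154 to 0.428 CPM in WT V9 leaf, yet stood at 11.8, 12.3 and 0 CPM in WT endosperm and at 10.7, 11 and 11.9 CPM in zb10 endosperm. Zea_mays_newGene_15148 stood at 2.98 to 6.99 CPM in zb10 V4 libraries and 1.11 to 2.37 CPM in zb10 V9 libraries, against no count in any WT leaf library. In endosperm it stood at 19.4, 15.5 and 6.92 CPM in zb10, against 3.86, 8.41 and 3.12 CPM in WT. The leaf contrast of these loci did not carry over as presence against absence to endosperm.

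Of the members near absent in WT leaf, 6 were high in only 1 zb10 library of each V4 section, at 1 CPM or more and at least 5-fold above the second highest. For all 6 it was the library of the same number in the white and the green section. Over all IDs, 78 had such a lone library in both sections, and it bore the same number in 32 of them. Deviations from the group means across genes also went together in same-numbered white and green libraries (correlations of 0.188, 0.174 and 0.385, against -0.278 to 0.112 for different numbers). The labels do not say whether a number marks the same plant.

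Of these 6, Zea_mays_newGene_6853, Zea_mays_newGene_6861 and Zea_mays_newGene_27215 shared 1 pattern across libraries. Zea_mays_newGene_6853 stood at 5.3, 0.252 and 0 CPM in the white section and 4.38, 0.113 and 0.143 CPM in the green section, against 0, 0.0846 and 0 CPM in WT V4 leaf. At V9 it was 0.471, 3.38 and 2.96 CPM in zb10 and 0, 0.154 and 0 CPM in WT. Replicate 1 was thus high at V4 and replicates 2 and 3 at V9, and the same libraries were high for the other two.

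Zea_mays_newGene_27215 had 3.52, 0.315 and 0 CPM in the white section and 2.37, 0.255 and 0 CPM in the green section, against no count in WT V4 leaf. In zb10 V9 leaf it had 0.207, 2.93 and 2 CPM, against 0, 0.0924 and 0 CPM in WT. Zea_mays_newGene_6861 had 2.02 CPM in white replicate 1 and 1.58 CPM in green replicate 1, and no count in the other V4 libraries of either genotype. These V4 group means rest mainly on 1 of 3 libraries. The groups overlapped in both V4 comparisons for Zea_mays_newGene_6861 and Zea_mays_newGene_27215, and in the white comparison for Zea_mays_newGene_6853.

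All 3 were present in every zb10 endosperm library. Zea_mays_newGene_27215 stood at 1.15, 1.37 and 1.41 CPM in zb10 endosperm, against 0 in each WT library, which with a floor of 3 counts for the WT group is at least 48.5-fold higher (edgeR adjusted p = 0.0783). Zea_mays_newGene_6853 had 191 counts in zb10 and 3 in WT, a ratio of 75.3 (95% exact counting interval 25.4 to 368; adjusted p = 0.129). Zea_mays_newGene_6861 had 41 counts in zb10 and 0 in WT, with the same floor at least 16.2-fold higher (adjusted p = 0.445). Bounds and intervals cover counting error only. Every WT endosperm library was under the count filter's cut of 0.288 CPM for all 3. They passed the filter only through zb10, so that their counts had to differ. In DESeq2 all 3 passed, with adjusted p = 3.51e-06 for Zea_mays_newGene_27215, 3.24e-06 for Zea_mays_newGene_6853 and 0.0295 for Zea_mays_newGene_6861. In edgeR without the count filter Zea_mays_newGene_27215 (0.0147) and Zea_mays_newGene_6853 (0.0214) passed.

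Zea_mays_newGene_16740 was also high in replicate 1 of both V4 sections, at 12 CPM in the white and 10.2 CPM in the green section, with at most 0.212 CPM in the other V4 zb10 libraries. Zea_mays_newGene_18231 was high in replicate 2 of both, at 7.4 CPM in the white and 4.33 CPM in the green section, and had no count in any endosperm library. Zea_mays_newGene_5427 was high in replicate 3 of both, at 9.63 CPM in the white and 6.13 CPM in the green section. Each of the 3 numbers thus had at least 1 member of its own.

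**Figure D3:**
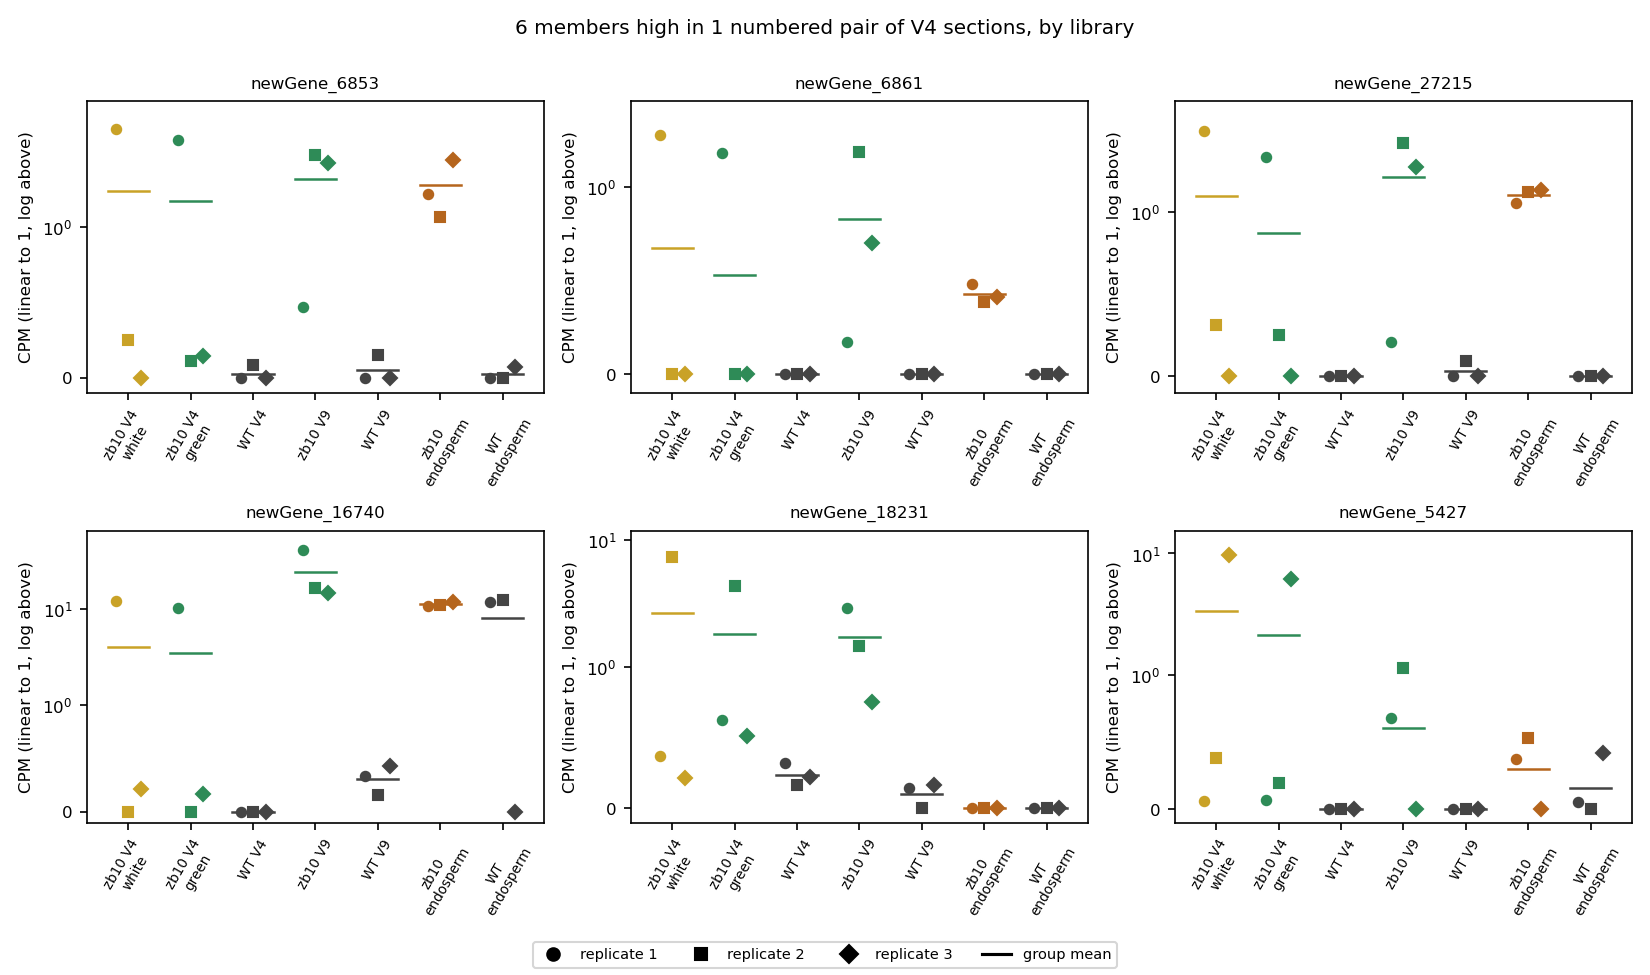
CPM of 6 members in every library (symbols mark replicates 1 to 3, bars the group means; the axis is linear up to 1 CPM and logarithmic above). In both V4 sections the high library bears the same number: replicate 1 for Zea_mays_newGene_6853, Zea_mays_newGene_6861, Zea_mays_newGene_27215 and Zea_mays_newGene_16740, replicate 2 for Zea_mays_newGene_18231 and replicate 3 for Zea_mays_newGene_5427.

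The other 23 higher members were graded, with at least 1 WT leaf library at 0.5 CPM or more. The neighbours in ID number Zea_mays_newGene_19852 and Zea_mays_newGene_19853 had the largest smallest shifts among them, 3.29 and 4. Zea_mays_newGene_19852 stood at 9.97, 9.88 and 11.6 CPM in the white section and 14.8, 10.7 and 15.4 CPM in the green section, against 1.02, 0.451 and 0.396 CPM in WT V4 leaf. At V9 it had 18.9, 25.5 and 24.2 CPM in zb10, against 1.06, 0.708 and 0.547 CPM in WT. In endosperm the direction was the opposite, with 8.2, 5.12 and 6.37 CPM in zb10, against 10.6, 14.4 and 14.3 CPM in WT. That difference did not pass in edgeR (log2 fold change -0.99 ± 0.22 SE, adjusted p = 0.533) and did in DESeq2 (adjusted p = 0.0126).

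Zea_mays_newGene_19853 stood at 8.23 to 14.2 CPM in the V4 zb10 libraries and 14.8 to 21.5 CPM at V9, against 0 to 0.756 CPM in WT leaf. In endosperm it had 5.69, 5.68 and 5.58 CPM in zb10, against 5.17, 7.61 and 7.87 CPM in WT, and the groups overlapped (log2 fold change -0.29 ± 0.21 SE, edgeR adjusted p = 0.915). Of the pair, both were lower in WT leaf than in WT endosperm, while in zb10 leaf their values were at or above those of zb10 endosperm in every library.

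The rule required a shift of the same sign in the white and the green section, so agreement in direction is no result. The white mean was above the green mean in 22 of the 39 higher members and 6 of the 23 lower ones, and the log2 ratio of white over green reached a size of 1 in 5 of the 62 (upward in 4.27% and downward in 1.33% of all IDs with a leaf count). Of these, 4 were higher members that stood above green in white: Zm00001d049244 (2.75), Zm00001d007027 (1.93), Zm00001d017002 (1.07) and Zm00001d026094 (1.03). The fifth was the lower member Zm00001d042935 (-1.78). For all 5 the white section was thus further from WT than the green section was.

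Zm00001d049244 stood at 106, 160.2 and 252 CPM in the white section and 25.6, 20.1 and 30.3 CPM in the green section, against 4.61, 4.23 and 3.98 CPM in WT V4 leaf. At V9 it had 37.3, 63.2 and 139 CPM in zb10 and 13.4, 6.59 and 10.1 CPM in WT. Zm00001d007027 had 24.7, 42 and 49.5 CPM in the white section and 10.9, 8.57 and 9.94 CPM in the green section, against 2.57, 2.73 and 2.32 CPM in WT V4 leaf. White replicate 3 was the highest white library for all 4, and it was also the library with the lowest sum of abundant leaf transcripts; the part of that sum in these values was not tested.

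In endosperm these 4 members were low in both genotypes, and their groups overlapped. Zm00001d049244 stood at 0, 5.85 and 1.24 CPM in zb10, against 2.56, 2.19 and 4.38 CPM in WT, with a log2 fold change of -0.39 ± 1.07 SE (edgeR adjusted p = 0.976). The sign turned without zb10 replicate 1 (log2 fold change 0.20).

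**Figure D4:**
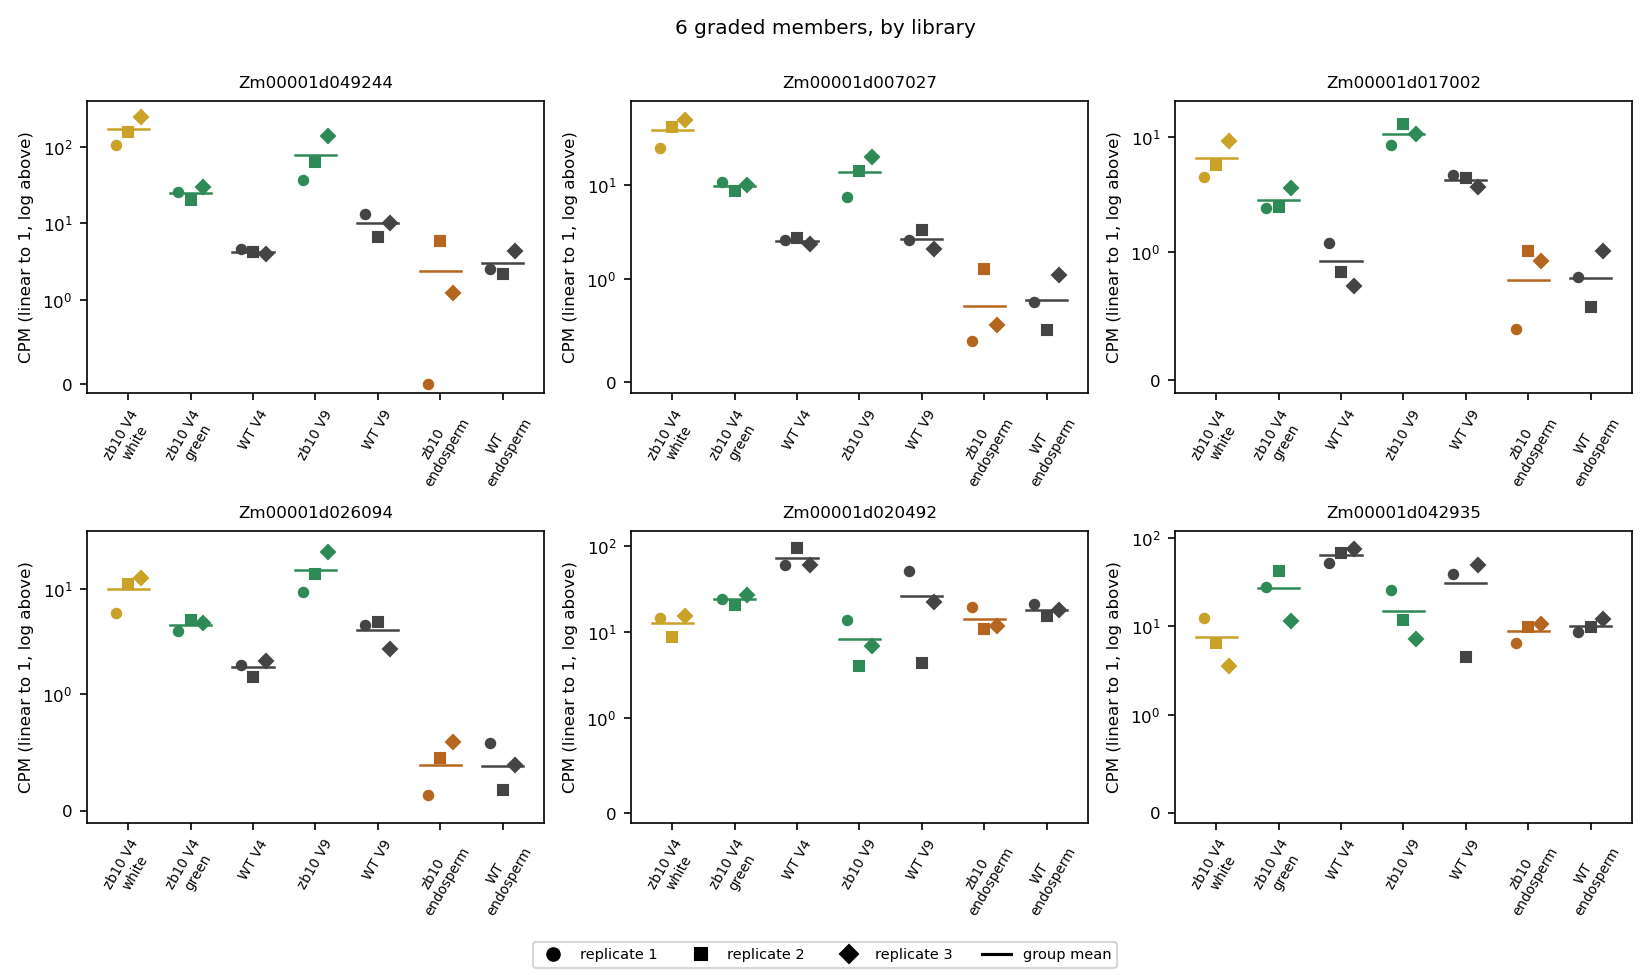
CPM of 6 graded members in every library (symbols mark replicates 1 to 3, bars the group means; the axis is linear up to 1 CPM and logarithmic above). Zm00001d049244, Zm00001d007027, Zm00001d017002 and Zm00001d026094 are higher in the white than in the green section, Zm00001d020492 and Zm00001d042935 are lower in zb10 V4 leaf than in WT, and WT V9 replicate 2 is the lowest WT V9 library for both.

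Of the 38 members with reference-style IDs, 5 had ID numbers within 300 of Zm00001d001909 (13.2%), where 374 other reference-style IDs in the table fall in that range (0.951%). All 5 were higher in zb10: Zm00001d001771, Zm00001d001786, Zm00001d001797, Zm00001d001804 and Zm00001d002182. ID numbers are names here, and no position was assigned to them. Zm00001d001771 stood at 15.1, 10.8 and 12 CPM in the white section and 12.5, 12.1 and 9.25 CPM in the green section, against 1.5, 2.37 and 1.39 CPM in WT V4 leaf. At V9 it had 9.91, 6.81 and 5.41 CPM in zb10, against 1.34, 0.924 and 1.09 CPM in WT.

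Zm00001d001804 was at 2.94 to 4.53 CPM in the white section and 2.18 to 2.54 CPM in the green section, against 0.507 to 1.02 CPM in WT V4 leaf. At V9 it was 11.6, 11.5 and 9.72 CPM in zb10, against 1.08, 1.11 and 1.19 CPM in WT. Zm00001d001797 stood at 11.4 to 17.9 CPM in the V4 zb10 libraries, against 4.71 to 6.73 CPM in WT V4 leaf. Zm00001d001786 stood at 7.3 to 10.4 CPM in the V4 zb10 libraries, against 3.43 to 3.98 CPM in WT V4 leaf. Zm00001d002182 stood at 7.14, 15.3 and 9.04 CPM in zb10 V9 leaf, against 3.74, 3.29 and 2.33 CPM in WT, and its endosperm counts were 2 in zb10 replicate 1 and 0 in the other libraries.

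In endosperm none of the 4 tested passed in edgeR, with log2 fold changes of 1.07 ± 0.52 for Zm00001d001771, 0.56 ± 0.29 for Zm00001d001786, 0.46 ± 0.25 for Zm00001d001804 and 0.06 ± 0.13 for Zm00001d001797 (± SE; adjusted p of 0.864 to 0.969). Zm00001d001797 stood at 10.3, 8.9 and 9.02 CPM in zb10 endosperm, against 9.39, 8.89 and 8.83 CPM in WT. The groups did not overlap for Zm00001d001786, and neither did they for Zm00001d001771, at 0.588, 0.841 and 0.689 CPM in zb10, against 0.278, 0.21 and 0.512 CPM in WT. Too few WT libraries of Zm00001d001771 were over the count filter's cut of 0.288 CPM to pass it without zb10.

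Among the 23 lower members, 7 were near absent in zb10 leaf, with all 9 zb10 leaf libraries under 0.5 CPM, and 6 of these were newGene loci. Zea_mays_newGene_18834 had no count in any zb10 leaf library, against 0.509, 0.535 and 0.848 CPM in WT V4 leaf and 1.01, 0.8 and 2.14 CPM in WT V9 leaf. In endosperm it was present in both genotypes, at 2.78, 4.56 and 5.48 CPM in zb10, against 12.6, 20 and 25.1 CPM in WT. The groups did not overlap, and the difference did not pass in edgeR (log2 fold change -2.17 ± 0.33 SE, adjusted p = 0.139). It passed in DESeq2 (adjusted p = 1.55e-09), without the count filter (0.0179) and with replicate number as a block (0.0364).

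Zea_mays_newGene_5341 stood at 0.173, 0.252 and 0.142 CPM in the white section and 0.0988, 0.283 and 0.258 CPM in the green section, against 0.992, 0.789 and 1.19 CPM in WT V4 leaf. In V9 leaf it had 0.32, 0 and 0.13 CPM in zb10, against 1.36, 0.616 and 1.74 CPM in WT. Zm00001d003674, the 1 reference-style ID of this class, had 0 to 0.39 CPM in zb10 leaf libraries, against 1.39, 1.58 and 1.67 CPM in WT V4 leaf and 1.11, 1.69 and 0.785 CPM in WT V9 leaf. In endosperm it had 2 counts in zb10 and 70 in WT, a ratio of WT over zb10 of 29.6 (95% exact counting interval 7.89 to 249), and the count filter left it out of the test.

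Zea_mays_newGene_23216, Zea_mays_newGene_25209 and Zea_mays_newGene_26335 were uneven among the WT libraries. Zea_mays_newGene_25209 stood at 0.173, 0.063 and 0.319 CPM in the white section and 0.527, 0.283 and 0.602 CPM in the green section, against 4.88, 0.31 and 0.17 CPM in WT V4 leaf. In V9 leaf it had 0.32, 0.227 and 0.442 CPM in zb10, against 1.14, 1.35 and 9.73 CPM in WT. In endosperm it had 0.0802, 0.105 and 0.276 CPM in zb10, against 4.11, 0.359 and 0.769 CPM in WT. WT replicate 1 was the highest WT library at V4 and in endosperm, and WT replicate 3 at V9, for all 3 loci. Zea_mays_newGene_23216 and Zea_mays_newGene_26335 had no count in zb10 endosperm and 103 and 116 counts in WT, which with a floor of 3 counts for the zb10 group is at least 29-fold and 32.7-fold lower in zb10. WT replicate 1 held 76 and 87 of these counts, and without it the bounds were 11.2-fold and 12-fold. WT replicate 3 also had no count of Zea_mays_newGene_23216, so that its groups overlapped.

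The 16 other lower members were graded. Zm00001d052985 stood at 1.41, 1.42 and 1.63 CPM in the white section and 0.955, 0.99 and 1.8 CPM in the green section, against 19.7, 23.5 and 18.6 CPM in WT V4 leaf. V9 leaf had 2.28, 3.95 and 3.02 CPM in zb10, against 21.5, 13.8 and 19.6 CPM in WT. In endosperm it had 0.214, 0.175 and 0 CPM in zb10, against 1.3, 1.29 and 1.28 CPM in WT, a difference that did not pass with the 6 endosperm libraries (log2 fold change -3.26 ± 0.74 SE, edgeR adjusted p = 0.574) but did in DESeq2 (0.0109) and in edgeR fitted over all 21 libraries (0.00447). Every zb10 endosperm library was under the count filter's cut of 0.288 CPM, so that Zm00001d052985 passed the filter only through WT. The fit over all 21 libraries also draws on the leaf libraries that chose this member, so its adjusted p is not separate from that choice.

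Zea_mays_newGene_22140 had 0.404, 0.189 and 0.283 CPM in the white section and 0.659, 0.198 and 0.0573 CPM in the green section, against 6.36, 3.58 and 4.52 CPM in WT V4 leaf. At V9 it stood at 0.113, 2.07 and 0.442 CPM in zb10, against 8.71, 6.87 and 9.37 CPM in WT. Its endosperm libraries did not overlap either, at 4.97, 7.96 and 7.27 CPM in zb10, against 8.8, 17.6 and 16.6 CPM in WT (log2 fold change -1.10 ± 0.3 SE, edgeR adjusted p = 0.701, DESeq2 adjusted p = 0.0393).

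Many lower members rested on uneven WT V9 libraries. The WT V9 libraries spanned 5-fold or more in 13 of the 23 lower members, against 5 of 23 for the WT V4 libraries, and WT V9 replicate 2 was the lowest of the 3 in 11 members and the highest in 7. The 13 include Zea_mays_newGene_23216 and Zea_mays_newGene_26335, near absent in zb10 leaf, and Zm00001d052355, with WT V9 replicate 2 at 0 CPM. The share over all IDs was not computed, and the rule used the WT V9 means, so no comparison with other IDs is drawn. Zm00001d020492 stood at 13.7, 3.97 and 6.83 CPM in zb10 V9 leaf, against 51.4, 4.31 and 22.3 CPM in WT. Zm00001d042935 stood at 25.6, 11.6 and 7.2 CPM in zb10 V9 leaf, against 39.1, 4.43 and 49.3 CPM in WT. Zm00001d047495 went the other way, with WT V9 replicate 2 at 11.7 CPM and the other WT libraries at 2.1 and 0.595 CPM, against 1.94, 0.613 and 1.35 CPM in zb10. Zm00001d005804 overlapped in every leaf comparison, with WT V4 replicate 2 at 0 CPM.

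The members were then compared in endosperm. Of the 62, 42 had a mean CPM in endosperm in the direction of their leaf shift, 15 in the other direction, and 5 had no count. Among the 39 higher members the mean was higher in zb10 endosperm in 28, where 50.1% of the 37704 IDs with an endosperm count were higher. Among the 23 lower members it was lower in 14 and higher in 5, where 49.9% of IDs were lower. The other 4 lower members had no endosperm count, and the shares of IDs leave out such IDs. The 3 zb10 libraries lay above the 3 WT libraries for 15 of the 39 higher members (38.5%) and below them for 2. Among all IDs with an endosperm count the shares were 4.43% above and 4.38% below. Among the genes of the edgeR test that follows, they were 5.33% above and 5.16% below. The zb10 libraries lay below WT for 7 of the 23 lower members (30.4%) and above for 0.

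The edgeR test covered 46 members, 35 higher and 11 lower, after the filter on low counts. Of these, 6 had every library of 1 genotype under the filter's cut of 0.288 CPM. They passed the filter only through the other genotype, so that their counts had to differ. These were Zea_mays_newGene_6853, Zea_mays_newGene_6861, Zea_mays_newGene_27215, Zea_mays_newGene_14573, Zm00001d052985 and Zea_mays_newGene_25209. After adjustment over 25366 genes 2 members passed, where 9 genes passed in all (0.0355%; 0.0197% higher and 0.0158% lower). Zea_mays_newGene_20646 rose, at 14.8, 17.4 and 10.3 CPM in zb10 endosperm, against 0, 0.389 and 0.117 CPM in WT (edgeR log2 fold change 6.40 ± 0.63 SE; adjusted p = 0.0248). Only replicate 2 of its WT libraries was over the filter's cut, so that it too could not have passed the filter without zb10. Zea_mays_newGene_5341 fell, at 4.81, 6.45 and 3.41 CPM in zb10, against 23.9, 27.2 and 18.4 CPM in WT (edgeR log2 fold change -2.26 ± 0.23 SE; adjusted p = 0.0309). Each call was lost in 7 of 14 alternatives, with adjusted p of 0.0623 to 0.23 for Zea_mays_newGene_20646 and 0.0757 to 0.163 for Zea_mays_newGene_5341, while the log2 fold changes ran from 5.83 to 7.76 and from -2.47 to -2.08.

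By class and over all members, filtered or not, the mean CPM was higher in zb10 endosperm in 14 of the 16 members near absent in WT leaf and in 14 of the 23 graded higher members. It was lower in zb10 endosperm in 6 of the 7 members near absent in zb10 leaf and in 8 of the 16 graded lower members. Of the other graded lower members, 4 were higher in zb10 endosperm and 4 had no endosperm count. The differences between the classes were not tested.

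At an unadjusted p under 0.05, 12 higher members were higher in zb10 endosperm and 1 was lower (3.16% and 2.63% of all genes), and 5 lower members were lower and 0 higher. Leaving aside the 6 members whose counts had to differ, 8 of 31 higher members and 3 of 9 lower members were at this level in the leaf direction. Of the 8 at this level, Zea_mays_newGene_20646, Zm00001d033871 and Zm00001d015824 also had too few WT libraries over the filter's cut to pass it without zb10. The 31 hold further members of this kind, among them Zm00001d015825, Zm00001d006346, Zm00001d003474 and Zm00001d001771. Besides those given above, the higher members at this level with groups that did not overlap were Zm00001d036680, Zea_mays_newGene_14573, Zm00001d002338 and Zea_mays_newGene_12939. Zm00001d002338 stood at 60, 54.4 and 53.2 CPM in zb10 endosperm, against 38.4, 43 and 47.8 CPM in WT (edgeR log2 fold change 0.38 ± 0.1 SE; adjusted p = 0.701). Zea_mays_newGene_12939 stood at 8.34, 11.2 and 7.17 CPM in zb10, against 0.361, 2.51 and 1.7 CPM in WT (log2 fold change 2.52 ± 0.54 SE, edgeR adjusted p = 0.516, DESeq2 adjusted p = 9.26e-05). Zm00001d036680 had a log2 fold change of 1.11 ± 0.44 SE (adjusted p = 0.83). Zea_mays_newGene_14573 had 57 counts in zb10 and 0 in WT, at least 22.5-fold higher with a floor of 3 counts, or 14.6-fold without zb10 replicate 2 (edgeR adjusted p = 0.447, and 0.00422 in DESeq2).

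**Figure D5:**
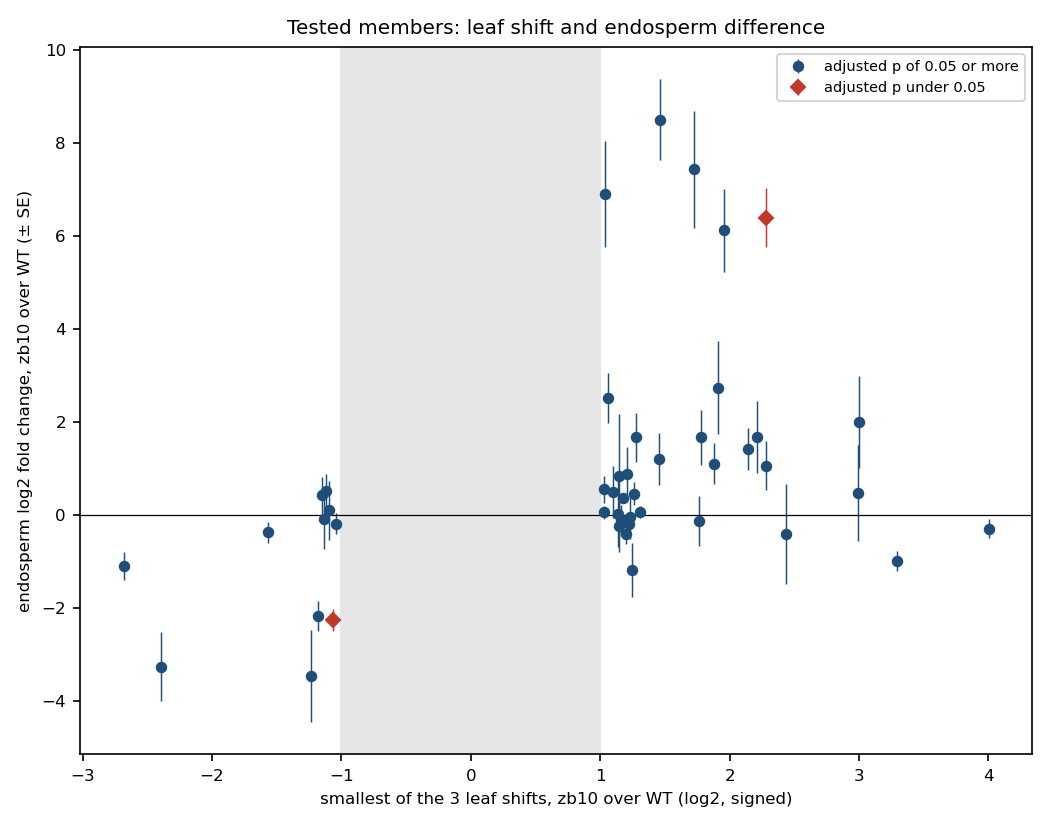
Endosperm log2 fold change of zb10 over WT (points, with bars of 1 SE) against the smallest of the 3 leaf shifts, for the 46 members tested in endosperm; the grey band holds no member by the rule. Red diamonds mark Zea_mays_newGene_20646 and Zea_mays_newGene_5341, the 2 members with an adjusted p under 0.05; the fitted values of members with no WT count depend on the model's prior count.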

How the data were processed

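Total RNA was made into SMARTer mRNA libraries, per the labels' protocols. The authors deposited a table of raw counts for 50142 IDs in 21 libraries, and these were used. Not given in the sources used here are the aligner, counter, build and annotation, the use of strand and the treatment of reads shared by near-identical copies, so loci with close copies or overlapping neighbours are uncertain. The table's columns read zb9 and 3L where the labels have zb10 and V4. Each column was matched to the 1 labelled group it fits.

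CPM were computed from library totals, and the rule for members was applied to them. Members, gene lists and named genes were chosen with earlier results of these data known. The genes named were the 6 higher and 6 lower members with the largest smallest shift, at 1 CPM or more in the higher genotype of every comparison. Members with an adjusted p under 0.05 in endosperm, or with groups that did not overlap and an unadjusted p under 0.05, were added, as were those nearest the threshold and those with ID numbers within 300 of Zm00001d001909. Other members were named after their values were seen. The endosperm counts were fitted over all genes in R 4.3.3, using the quasi-likelihood test of edgeR 4.0.16 (TMM scaling, filterByExpr at its default minimum count, 10, and total, 15, with p-values adjusted by Benjamini-Hochberg and a threshold of 0.05). The SE given was computed as the size of the log2 fold change divided by the square root of the edgeR test's F statistic. DESeq2 1.42.0 and other settings were run as alternatives.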

Additional observations from a re-analysis of the deposited data

Results flagged for a closer look

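In 2 members every leaf comparison and the endosperm comparison were separated in opposite directions, with no overlap between zb10 and WT libraries in any of them; the difference between tissues was not tested. Zea_mays_newGene_19852, higher in zb10 leaf, had a mean of 6.56 CPM in zb10 endosperm, against 13.1 CPM in WT. Zm00001d019123, higher in zb10 leaf (6.34 to 17 CPM in the white section, against 3.35 to 4.18 CPM in WT V4 leaf), had a mean of 2.61 CPM in zb10 endosperm, against 3.46 CPM in WT (log2 fold change -0.40 ± 0.22 SE, edgeR adjusted p = 0.878).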

How the results depend on the processing

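In endosperm, edgeR called 5 genes higher and 4 lower in zb10, among them 1 higher and 1 lower member. DESeq2 called 65 genes higher and 53 lower in zb10 endosperm, with 7 and 7 members. The 7 lower ones include Zea_mays_newGene_19852, which was higher in zb10 leaf. Among the 7 higher ones were Zea_mays_newGene_6853, Zea_mays_newGene_6861, Zea_mays_newGene_27215 and Zea_mays_newGene_14573, which passed the edgeR filter only through zb10. Without the count filter 14 and 13 genes were called, with 3 and 2 members. With all 21 libraries 9 genes and 2 members were higher. That fit includes the leaf libraries that chose the members. With the sum of abundant leaf transcripts as a covariate 1 gene was called in each direction, and 0 and 0 members. With robust estimation, added after seeing the data, 0 members were called higher. Same-numbered endosperm libraries deviated together no more than those of different numbers (correlations of -0.0399, -0.0523 and 0.117, against -0.122 to 0.154). The labels do not say whether a number pairs them. With the replicate block 0 genes and 0 members were called higher and 2 members lower. Leaving out 1 endosperm library gave 0 to 10 genes higher and 0 to 6 lower, with 0 to 1 members in each direction. In the 8 edgeR fits with 0 members called in a direction, 11 to 17 higher and 4 to 9 lower members had an unadjusted p under 0.05, against 4.42% to 7.77% of all genes; these counts include members that passed the filter through 1 genotype only. Without WT replicate 3 no gene was called, and 1622 (6.2%) had an unadjusted p under 0.05. Tested members with the sign of their leaf shift numbered 33 of 46. With 1 library left out they ran from 32 of 47 to 42 of 50. Over all genes tested in the main fit, 50.8% of log2 fold changes were above 0 and 49.2% below. The member counts include those that passed the filter through 1 genotype only. Of 25 named members 2 changed sign, each in 1 fit: Zea_mays_newGene_16740 (log2 fold change -0.12 without WT replicate 3; -0.12 to 0.98 with 1 library left out) and Zm00001d049244 (0.20 without zb10 replicate 1; -2.28 to 0.20).

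The list itself depends on its settings. A pseudocount of 0.1 gave 99 higher and 89 lower members, and one of 2 gave 13 and 3. A size of 0.8 gave 47 lower members, and one of 1.5 gave 18 higher and 3 lower. Leaving out 1 leaf library gave 35 to 43 higher and 18 to 48 lower members, the most lower ones without WT V9 replicate 2. Group medians gave 38 higher and 26 lower, of which 28 and 13 were on the list. The cause of these changes was not tested.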
